A study of Mus musculus with 6 samples.

Results

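Foxp3, Ikzf2, Ikzf4, Nrp1, Gpr83, Lrrc32, Izumo1r, Capg and Ebi3, 9 genes known for their high expression in regulatory T cells, were followed through RNA-seq libraries of mouse CD4+ T cells. The genes were chosen by symbol, and all 9 were found among the 22899 genes of each table. The obese group held 3 libraries from C57BL/6 mice on a high-fat diet that supplied 60 kcal% fat, and the lean group held 3 libraries from C57BL/6 mice on a normal diet. For either diet, feeding began in general at an age of 6 to 8 weeks and lasted up to 4 months. CD4+ T cells were sorted from spleen by flow cytometry, and the labels name no further gate for regulatory cells, so each value is an average over all cells of the sort. In such bulk samples, fewer cells of a type and less RNA per cell cannot be told apart. The labels do not say that each library came from its own mouse, and a p-value therefore reflects only how far these libraries scatter, which may be technical.

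Regulatory T cells are the CD4+ T cells that restrain immune responses. The transcription factor Foxp3 defines them and keeps their gene programme in place, together with the Ikaros family factors Helios (Ikzf2) and Eos (Ikzf4). On their surface they carry receptors and docking proteins such as Nrp1, Gpr83, Lrrc32 and Izumo1r, and they can secrete cytokines that contain the Ebi3 chain. Obesity is known for changes of regulatory T cells in adipose tissue, whereas spleen holds a circulating and lymphoid pool of them.

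Levels were deposited as FPKM, the fragments of a gene per kilobase of transcript scaled to the mapped fragments of the library, which allows levels to be compared between genes. Differences were tested with limma on log2(FPKM + 1), obese minus lean, over the 10788 genes that reached 1 FPKM in 3 or more libraries, and a gene was said to rise or fall when its p-value with Benjamini-Hochberg (BH) adjustment over all of them was under 0.05. All 9 genes passed the filter and stayed above 1 FPKM in every library. Summed over all genes, FPKM came to 595106 to 630744 in obese and to 616104 to 656303 in lean libraries, and the read depth is unknown. The sorted cells carried T cell transcripts throughout, with a mean log2 value of 10 T cell identity genes (Cd3d, Cd3e, Cd3g, Cd247, Cd4, Cd5, Cd6, Lck, Zap70 and Lat) between 8.07 and 8.37 in obese and between 8.26 and 8.43 in lean libraries. They also carried transcripts of other cells. Macrophage and monocyte markers averaged 5.52 to 5.84 in obese and 4.18 to 4.35 in lean libraries, and all 14 of them rose. All 6 tested erythroid markers rose as well, with averages of 3.09 to 5.22 in obese and 0.886 to 1.12 in lean libraries. Of 6 neutrophil markers 4 fell and of 6 NK cell markers 2 fell, and neither of the 2 CD8 T cell markers rose or fell.

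Of the 9 genes, 1 rose in obese libraries and none fell, while 5.77% of all tested genes rose and 0.519% fell. The gene that rose was Nrp1. At an unadjusted p under 0.05, 3 of the 9 differed, against 25.9% of all tested genes. The 3 obese values lay above the 3 lean values for Nrp1, Ikzf2 and Capg, that is for 3 of 9 genes, against 25.4% of all tested genes. No gene of the 9 had all obese values below all lean values, which held for 6.15% of tested genes. Their median log2 difference was 0.24, beside a median of 0.10 over all tested genes. Differences were positive for 6 of them, as for 70.8% of all tested genes. For so few genes these counts lie close to the shares over the whole table.

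**Figure D1:**
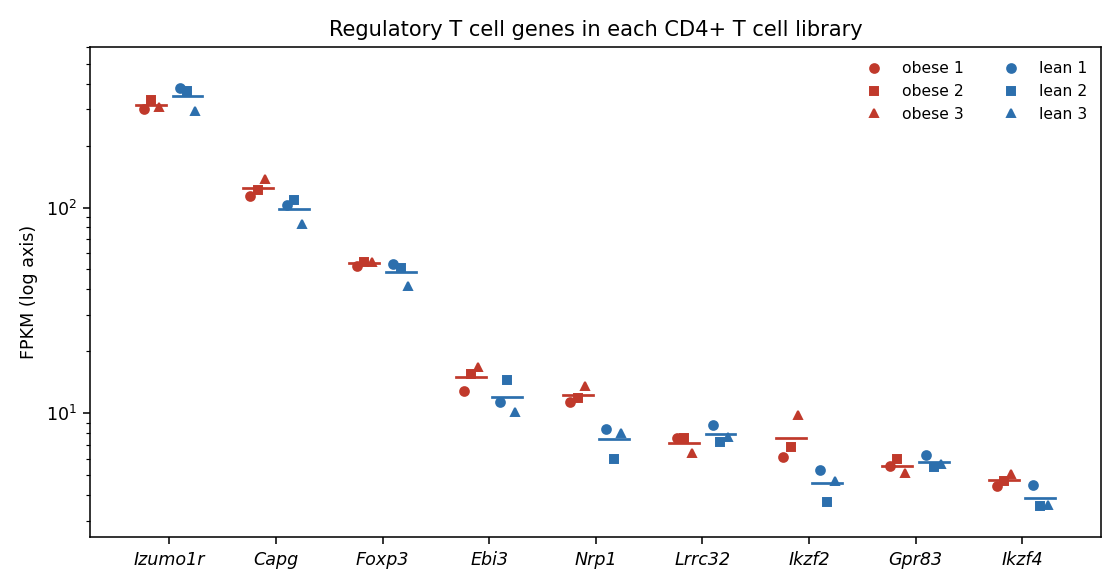
FPKM on a log axis of the 9 regulatory T cell genes in each library, with obese libraries in red on the left and lean libraries in blue on the right of each pair; marker shapes are library numbers and bars are group means. Izumo1r lay highest, between 294.6 and 381.0 FPKM, and Ikzf4 lowest, between 3.56 and 5.10 FPKM, and the groups were apart for Capg, Nrp1 and Ikzf2.

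Foxp3, the forkhead factor that defines the lineage, had 51.94, 54.66 and 54.32 FPKM in obese libraries 1 to 3, against 53.24, 50.75 and 41.40 FPKM in lean libraries 1 to 3. The groups overlapped, and lean 3 lay below the other 5 libraries. Means were 53.6 ± 1.48 FPKM in obese and 48.5 ± 6.24 FPKM in lean libraries (SD, n = 3 each). The log2 difference of 0.15 ± 0.10 (SE) stayed short of the threshold (limma, adjusted p = 0.358), and its 95% interval ran from −0.07 to 0.38. A rise of Foxp3 by more than 0.38 on this scale lies outside the interval, which holds only for FPKM as deposited. With libraries scaled in other ways the difference ran from 0.03 to 0.26 and did not pass. The spread between lean libraries came with lean 3, and without it the difference was 0.04.

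Foxp3 (gene 20371) lies on chromosome X from 7579676 to 7595243 on the plus strand (GRCm38). In the GENCODE annotation of the same build its exons share 590 bases with Ccdc22 and 266 bases with Ppp1r3f, both on the opposite strand, and 853 bases with the non-coding RNA Flicr on the same strand. The strandedness of the libraries is not given in the sources used here, so fragments from such stretches cannot be assigned with certainty. Flicr was not analysed here. Ccdc22 had 12.38 to 15.55 FPKM in obese and 12.34 to 16.06 FPKM in lean libraries, and Ppp1r3f had 3.43 to 3.83 FPKM in obese and 3.47 to 5.38 FPKM in lean libraries. Both stood well below Foxp3 in every library.

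Promoter sequences were available from RefSeq (GRCm38.p6) for 6 of the 9 genes, with 2 start sites for Foxp3, and were searched on both strands for 8 short motifs of factors known at these genes: TGTTTAC and TGTTTNC (forkhead), TTCNNNGAA (STAT), TGTGGT (RUNX), GGAAAA (NFAT core), TGANTCA (AP-1), TGGGAA (Ikaros core) and CCGGAA (ETS). The window ran from 250 bases before to 50 bases after a start site. The sequences below are those of Foxp3, the defining gene, and of Nrp1, the gene that rose. Capitals mark motif matches or, at the first Foxp3 start, TATAAA.
Foxp3, first start, 30 bases, chrX:7579632-7579661, plus strand: ttttcttctcggTATAAAagcaaagttgtt
Foxp3, second start, chrX:7580233-7580482, plus strand: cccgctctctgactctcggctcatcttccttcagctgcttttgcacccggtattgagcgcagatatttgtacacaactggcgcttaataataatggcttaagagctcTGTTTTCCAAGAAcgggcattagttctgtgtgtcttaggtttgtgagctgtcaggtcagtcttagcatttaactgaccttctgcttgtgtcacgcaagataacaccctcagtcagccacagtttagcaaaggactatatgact
Nrp1, chr8:128358823-128359072, plus strand: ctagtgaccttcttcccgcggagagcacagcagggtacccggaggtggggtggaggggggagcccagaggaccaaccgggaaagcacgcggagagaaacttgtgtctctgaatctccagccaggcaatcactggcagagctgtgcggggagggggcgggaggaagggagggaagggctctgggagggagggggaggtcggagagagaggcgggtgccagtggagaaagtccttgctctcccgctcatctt
At the first Foxp3 start, TATAAA began 32 bases before the start site, and 2.87% of all 32851 promoters held these letters in their last 60 bases before the start. At the second start, the looser forkhead motif, the NFAT core (on the opposite strand) and the STAT motif overlapped in 1 run of letters that began 143 bases before it. These motifs occurred in 20.5%, 23.4% and 8.30% of all promoters. The window of the second start lies within the gene, outside the GENCODE exons of Foxp3. The Nrp1 window, which lies in no GENCODE exon of the gene, held none of the 8 motifs and was richer in G and C, at 64.4% against 37.6% and 46.0% for the Foxp3 windows and a median of 52.4% over all promoters. TGGGAA, the most frequent of the 8, occurred in 3 of 7 promoters of these genes (Capg, Gpr83 and Foxp3), against 25.6% of all promoters. CCGGAA occurred before Ebi3 and TGTGGT before Izumo1r, each in 1 of 7 promoters, against 14.9% and 16.8% of all. No match was found to TGTTTAC or TGANTCA, which occurred in 3.65% and 7.81% of all promoters. A match is a description of letters and not a binding site.

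Ikzf2 and Ikzf4 lay near the lower end of the 9 genes. Ikzf2 (gene 22779, chromosome 1, 69531207 to 69687351, minus strand), which encodes Helios, a factor of thymus-derived and activated regulatory T cells, had 6.15, 6.90 and 9.78 FPKM in obese and 5.33, 3.69 and 4.67 FPKM in lean libraries. All obese values lay above all lean values, and obese 3 stood above the other 2 obese libraries. Its exons share 144 bases with an antisense transcript, Gm29114, and strand was not resolved. Means were 7.61 ± 1.92 FPKM in obese and 4.56 ± 0.825 FPKM in lean libraries (SD, n = 3 each), a ratio of 1.67. The log2 difference was 0.62 ± 0.17 (SE) with a 95% interval from 0.22 to 1.01, and did not pass after adjustment (limma, adjusted p = 0.0739). Without obese 3 it was 0.44.

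Ikzf4 (gene 22781, chromosome 10, 128630839 to 128669671, minus strand), which encodes Eos, a partner of Foxp3 in gene repression, had 4.43, 4.68 and 5.10 FPKM in obese and 4.48, 3.56 and 3.60 FPKM in lean libraries. Lean 1 reached into the obese range, so the groups overlapped. The log2 difference of 0.24 ± 0.12 (SE) did not pass (limma, adjusted p = 0.235). Of the other Ikaros family genes, Ikzf3, which encodes Aiolos of B and T lymphocytes, rose, with 32.8 ± 3.42 FPKM in obese and 24.6 ± 1.63 FPKM in lean libraries (SD, n = 3 each) and a difference of 0.39 ± 0.10 on the log2 scale (SE; limma, adjusted p = 0.0486). That call was lost without lean 1, lean 2, obese 1 or obese 3 and under 6 other settings, with an adjusted p in limma of up to 0.146. B cell markers averaged 4.95 to 5.89 in obese and 4.44 to 5.27 in lean libraries, and their part in the Ikzf3 result was not tested. Ikzf1 (Ikaros) and Ikzf5 differed by 0.02 and 0.15 on the log2 scale, short of the threshold. Of the 5 members of the family, 1 rose and none fell, against 5.77% and 0.519% of all tested genes. Their median log2 difference was 0.24, beside 0.10 for all tested genes.

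Among the surface proteins, Nrp1 (gene 18186, chromosome 8, 128358591 to 128505476, plus strand) rose. It encodes neuropilin-1, a co-receptor for semaphorins and for vascular endothelial growth factor that marks thymus-derived regulatory T cells in mice. Nrp1 had 11.31, 11.94 and 13.58 FPKM in obese and 8.44, 5.99 and 8.05 FPKM in lean libraries. The lowest obese value lay above the highest lean value, and lean 2 was the lowest of all. Means were 12.3 ± 1.17 FPKM in obese and 7.49 ± 1.32 FPKM in lean libraries (SD, n = 3 each), a ratio of 1.64. The log2 difference was 0.65 ± 0.13 (SE), higher in 3 of 3 obese libraries, with a 95% interval from 0.35 to 0.96 (limma, adjusted p = 0.0251). The call was lost without lean 2, obese 2 or obese 3 (limma, adjusted p = 0.0625, 0.0562 and 0.0723).

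Macrophages and dendritic cells express Nrp1 too. All 14 macrophage and monocyte markers rose, with a median log2 difference of 1.44, and Adgre1, which encodes the macrophage surface protein F4/80, had 24.87 to 33.54 FPKM in obese and 8.41 to 11.04 FPKM in lean libraries. Dendritic cell markers averaged 2.87 to 3.30 in obese and 2.86 to 2.93 in lean libraries, and none of the 9 tested rose or fell. Their median log2 difference was 0.27, and 6 of the 9 were positive. Of the 7 endothelial and stromal markers, only Pecam1, which leukocytes share, passed the filter, and Cdh5 stayed at or under 0.49 FPKM. The part of macrophages and dendritic cells in the Nrp1 result was not tested.

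Gpr83 and Izumo1r are neighbours on chromosome 9 and point toward each other, with 15024 bases and no other RefSeq gene between them. Gpr83 (gene 14608, 14859880 to 14870789, plus strand), a G protein-coupled receptor raised in regulatory T cells, had 5.54, 6.00 and 5.11 FPKM in obese and 6.31, 5.47 and 5.67 FPKM in lean libraries. The groups overlapped. Its log2 difference was −0.06 ± 0.11 (SE; limma, adjusted p = 0.760), with a 95% interval from −0.30 to 0.18, and turned to 0.04 when libraries were scaled to the T cell identity genes.

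Izumo1r (gene 64931, 14885814 to 14903951, minus strand) encodes folate receptor 4, a surface protein of regulatory, anergic and follicular helper T cells that is also the egg receptor for the sperm protein Izumo1. It was the most abundant of the 9 genes, with 300.68, 332.72 and 308.97 FPKM in obese and 381.00, 368.32 and 294.60 FPKM in lean libraries. The groups overlapped through lean 3, which had the lowest value, while lean 1 and lean 2 lay above every obese library. Means were 314.1 ± 16.6 FPKM in obese and 348.0 ± 46.7 FPKM in lean libraries (SD, n = 3 each). The log2 difference of −0.14 ± 0.11 (SE) did not pass (limma, adjusted p = 0.427). It was −0.25 without lean 3, −0.07 without lean 1, −0.09 without lean 2 and −0.03 with libraries scaled to the T cell identity genes, and passed in none of these (limma, adjusted p = 0.0721, 0.772, 0.728 and 0.865).

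Lrrc32 (gene 434215, chromosome 7, 98489305 to 98501831, plus strand) encodes GARP, which holds latent TGF-beta on the surface of activated regulatory T cells and platelets. Its levels were 7.62, 7.56 and 6.40 FPKM in obese and 8.74, 7.26 and 7.69 FPKM in lean libraries. The groups overlapped, with obese 3 lowest and lean 1 highest. The log2 difference was −0.12 ± 0.11 (SE), with a 95% interval from −0.37 to 0.13 (limma, adjusted p = 0.522). Platelet markers averaged 2.97 to 3.45 in obese and 2.54 to 3.10 in lean libraries, and none of the 6 rose or fell. Their median log2 difference was 0.33, and 5 of the 6 were positive. All obese values lay above all lean values for 2 of the 6, against 25.4% of all tested genes. The part of platelets in the Lrrc32 values was not tested.

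Ebi3 and Capg stood for the secreted and cytoplasmic side. Ebi3 (gene 50498, chromosome 17, 55952623 to 55957022, plus strand) encodes the chain that the cytokines IL-27 and IL-35 share, and is made by regulatory T cells as well as by B cells and myeloid cells. Its exons share 270 bases with the antisense transcript Gm16712. It had 12.78, 15.59 and 16.79 FPKM in obese and 11.36, 14.45 and 10.15 FPKM in lean libraries. Lean 2 lay above obese 1, so the groups overlapped. The log2 difference of 0.31 ± 0.14 (SE) did not pass (limma, adjusted p = 0.211). Among obese libraries Ebi3 was highest in obese 3 and among lean libraries in lean 2. The mean of the B cell markers was placed alike, with 5.89 in obese 3 and 5.27 in lean 2. So were the means of plasma cell markers (6.14 and 5.30) and of CD8 T cell markers (5.07 and 4.88). Macrophage and monocyte markers were highest in obese 1 (5.84) and in lean 3 (4.35). The part of any of these cells in the Ebi3 values was not tested.

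Capg (gene 12332, chromosome 6, 72538282 to 72562983, plus strand) encodes a protein of the gelsolin family that caps actin filaments and is abundant in macrophages. It had 113.46, 122.15 and 137.22 FPKM in obese and 102.46, 108.39 and 82.88 FPKM in lean libraries. All obese values lay above all lean values. Means were 124.3 ± 12.02 FPKM in obese and 97.9 ± 13.4 FPKM in lean libraries (SD, n = 3 each). The log2 difference was 0.35 ± 0.11 (SE), with a 95% interval from 0.09 to 0.61, and did not pass after adjustment (limma, adjusted p = 0.106). Macrophage markers had a median log2 difference of 1.44, and their part in the Capg values was not tested.

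**Figure D2:**
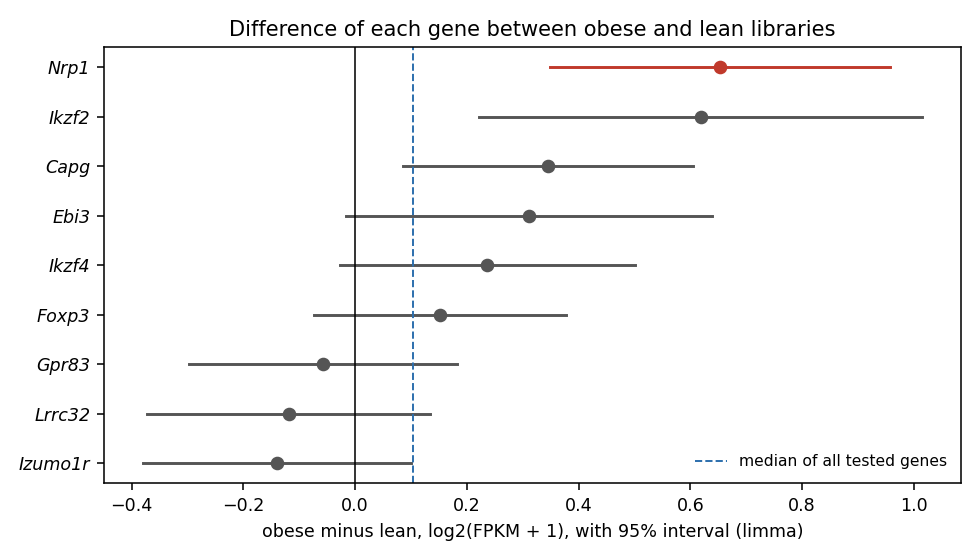
Difference in log2(FPKM + 1) between obese and lean libraries (obese minus lean) for each gene, with its 95% interval from limma; red marks the gene past the threshold, and the dashed blue line is the median of all tested genes, 0.10. Nrp1 (0.65) and Ikzf2 (0.62) lay farthest to the right, and Gpr83, Lrrc32 and Izumo1r lay left of 0.

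The order of the levels was alike in both groups at the top, and the genes swapped places below. In obese libraries it was Izumo1r, Capg, Foxp3, Ebi3, Nrp1, Ikzf2, Lrrc32, Gpr83 and Ikzf4. In lean libraries it was Izumo1r, Capg, Foxp3, Ebi3, Lrrc32, Nrp1, Gpr83, Ikzf2 and Ikzf4. Izumo1r, Capg and Foxp3 were apart from each other and from the next gene in either group. In obese libraries the values of Ebi3 and Nrp1 overlapped, as did those of Ikzf2 and Lrrc32. In lean libraries the values of Lrrc32 and Nrp1, of Nrp1 and Gpr83, and of Ikzf2 and Ikzf4 overlapped. Nrp1 thus stood above Lrrc32 without overlap in obese libraries (11.31 to 13.58 against 6.40 to 7.62 FPKM) and among its values in lean libraries (5.99 to 8.44 against 7.26 to 8.74 FPKM).

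To ask whether a gene moved with Foxp3, each was divided by Foxp3 of the same library. Izumo1r stood at 5.79, 6.09 and 5.69 times Foxp3 in obese and at 7.16, 7.26 and 7.12 times Foxp3 in lean libraries. The ratio was lower in all 3 obese libraries, by 0.29 on the log2 scale, with an SD of 0.05 among obese and 0.01 among lean libraries. Lean 3, which was lowest for both genes, had nearly the same ratio as lean 1 and lean 2. The ratio stayed lower by 0.27 to 0.32 when any 1 library was left out. Over all genes with at least 1 FPKM in every library, 17.1% had a ratio to Foxp3 that was lower in all obese than in all lean libraries.

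Nrp1 stood at 0.218, 0.218 and 0.25 times Foxp3 in obese and at 0.159, 0.118 and 0.194 times Foxp3 in lean libraries. Ikzf2 stood at 0.118, 0.126 and 0.18 times Foxp3 in obese and at 0.1, 0.0727 and 0.113 times Foxp3 in lean libraries. Both ratios were higher in all 3 obese libraries, by 0.57 on the log2 scale for either gene. Capg stood at 2.18, 2.23 and 2.53 times Foxp3 in obese and at 1.92, 2.14 and 2.002 times Foxp3 in lean libraries, also without overlap, although obese 1 and lean 2 nearly touched. Ratios above in all obese libraries held for 6.65% of all genes compared, and for these 3 of the 8 genes. The ratios of Gpr83, Lrrc32, Ikzf4 and Ebi3 overlapped between groups. In an exact permutation test over the 20 splits of 6 libraries, 2-sided, the p of the 4 ratios that did not overlap was 0.1, the smallest that 3 against 3 libraries can give, and 0.2 after BH adjustment over the 8 ratios. No ratio could have passed at this size.

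**Figure D3:**
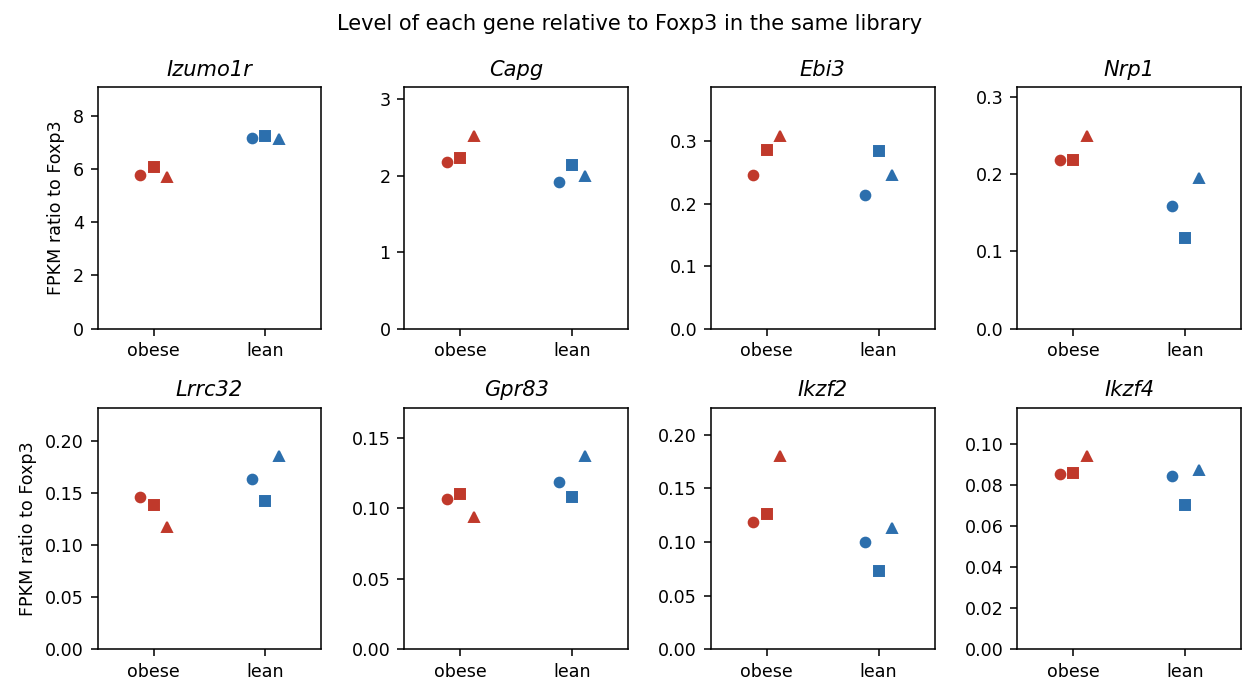
FPKM of each gene divided by FPKM of Foxp3 in the same library, with obese libraries in red on the left and lean libraries in blue on the right; circles, squares and triangles are libraries 1, 2 and 3, and each axis starts at 0. The Izumo1r ratio was 5.69 to 6.09 in obese and 7.12 to 7.26 in lean libraries, and those of Nrp1, Ikzf2 and Capg lay higher in obese libraries.

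Relative to the geometric mean of the 10 T cell identity genes, Foxp3 stood at 16.3%, 16.6% and 20.3% in obese and at 15.5%, 15.1% and 13.5% in lean libraries. This ratio was higher in all obese libraries, unlike the Foxp3 level itself. Obese 3 had both the highest ratio and the lowest T cell identity mean (8.07). Of the 10 T cell identity genes none rose or fell, and their median log2 difference was −0.12. Differences were positive for 0 of these 10, against 70.8% of all tested genes. A lower denominator raises this ratio for any gene. Ikzf2, Ikzf4, Nrp1 and Capg were also apart on this measure, with fold differences of 1.79, 1.32, 1.79 and 1.38 against 1.20 for Foxp3. That made 5 of the 9 genes, against 27.3% of all genes compared, and none of the 9 was lower in all obese libraries, against 1.81%. Izumo1r, Lrrc32 and Gpr83 had folds of 0.981, 0.985 and 1.03 and overlapped. The exact permutation test gave p = 0.1 for each of the 5, the smallest possible, and 0.18 after BH adjustment over the 9 ratios. In the limma test with libraries scaled to these genes Foxp3 had a log2 difference of 0.26 and did not pass (limma, adjusted p = 0.231), and the median of all tested genes moved to 0.20.

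Genes with the profile most like Foxp3 were sought among 7900 tested genes with a mean of at least 5 FPKM, by the root mean square distance between log2 profiles centred on their means over the 6 libraries. The 5 closest, among them Poldip2, D2hgdh, Nelfe and Ciapin1, lay at distances of 0.0274 to 0.0334, against a median of 0.178 over all genes. Like Foxp3, each was lowest in lean 3. For example, Poldip2 had 19.58 to 20.84 FPKM in obese and 16.03 to 19.68 FPKM in lean libraries. None of the other 7 regulatory genes compared was among them, and Ikzf4 lay under the level of 5 FPKM. Capg was closest with a distance of 0.125, at rank 1567 of 7900. Izumo1r, Gpr83 and Ebi3 lay at 0.149, 0.155 and 0.164, under the median. Lrrc32, Nrp1 and Ikzf2 lay at 0.19, 0.321 and 0.33, beyond the median.

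A longer list held 32 surface and effector genes of regulatory T cells. Of the 29 tested, 5 rose and none fell, against 5.77% and 0.519% of all tested genes, and the median log2 difference was 0.31, beside 0.10 for all tested genes. Differences were positive for 26, against 70.8% of all tested genes, and 12 of the 29 had obese values above all lean values, against 25.4% of all tested genes. The list is not specific to regulatory cells, since activated T cells carry many of these genes. Areg, Plagl1 and Itgb8 were under the filter.

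Entpd1, the ectoenzyme CD39 that degrades ATP, had 10.9 ± 0.739 FPKM in obese and 6.28 ± 0.255 FPKM in lean libraries (SD, n = 3 each). Its difference was 0.71 ± 0.10 on the log2 scale (SE; limma, adjusted p = 0.00360), and it passed in each of the 6 fits that left out a library. Prdm1, which encodes the effector regulator Blimp-1, rose by 0.79, Rgs1, a brake on chemokine receptor signalling, by 0.72, and Cd83, a surface protein of activated lymphocytes, by 0.57 on the log2 scale (limma, adjusted p = 0.0252, 0.0295 and 0.0180). The fifth was the TNF receptor gene Tnfrsf1b, with 0.38 (limma, adjusted p = 0.0492), named after its values were seen. Tnfrsf1b did not pass in any of the 6 fits that left out a library, Prdm1 and Cd83 did not without lean 1 or lean 2, and Rgs1 did not without obese 1 or obese 3, with an adjusted p in limma of up to 0.141 over these genes. All 4 called genes other than Entpd1 also lost the call when no filter was applied. Without lean 2 the list had 2 genes that passed, and without obese 1 or obese 3 it had 3.

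Other genes of the list did not pass. Ctla4, an inhibitory receptor that Foxp3 sustains, had 34.2 ± 1.92 FPKM in obese and 27.0 ± 3.20 FPKM in lean libraries (SD, n = 3 each), which differed by 0.34 on the log2 scale (limma, adjusted p = 0.0855) and passed with the replicate block or library weights. Tnfrsf18, which encodes GITR, had a log2 difference of 0.08. Both were named after their values were seen. Macrophages and B cells also express Entpd1, Cd83, Prdm1 and Rgs1 in part. Macrophage markers averaged 5.52 to 5.84 in obese and 4.18 to 4.35 in lean libraries, and plasma cell markers, which bear on Prdm1, averaged 5.36 to 6.14 in obese and 4.93 to 5.30 in lean libraries. Their part in these results was not tested.

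**Figure D4:**
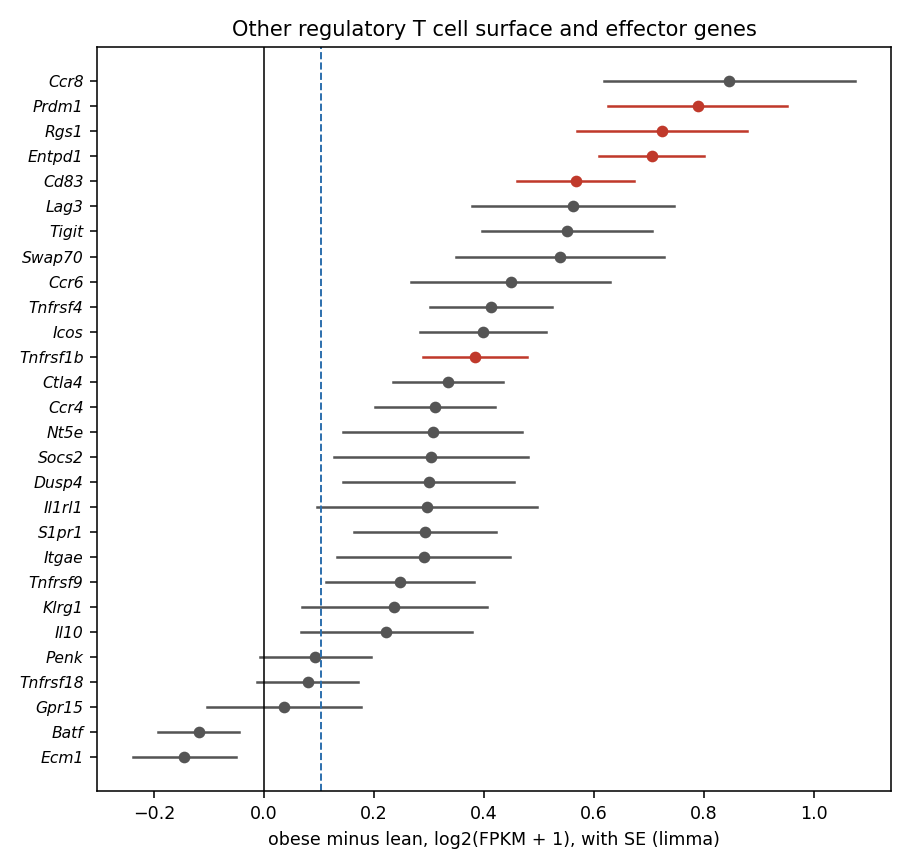
Log2 difference, obese minus lean, with its SE for the tested surface and effector genes of regulatory T cells, apart from 1 of the 29 that is not reported here; red marks the 5 genes past the threshold and the dashed line the median of all tested genes, 0.10. Above 0 lay 26 genes, up to 0.85 for Ccr8.

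None of the 26 partners and upstream factors of Foxp3 rose or fell, with a median log2 difference of 0.06, beside 0.10 for all tested genes (limma). Of all tested genes, 6.28% rose or fell. At an unadjusted p under 0.05 stood 2 of the 26, against 25.9% of all tested genes. Those were Irf4, a factor of effector differentiation, with 0.65, and Ezh2, a histone methyltransferase of dividing cells, with 0.60 (limma, adjusted p = 0.0594 and 0.0829). Plasma cell markers had a median log2 difference of 0.62, beside 0.10 for all tested genes. The part of plasma cells in the Irf4 values was not tested. The receptor chains of IL-2, a cytokine that maintains Foxp3, did not pass. Il2ra, which encodes CD25, had 16.5 ± 1.06 FPKM in obese and 15.1 ± 1.90 FPKM in lean libraries (SD, n = 3 each), with overlap. Il2rb and Il2rg, the other chains, had log2 differences of −0.16 and −0.13 (limma, adjusted p = 0.243 and 0.283). For both, all obese values lay below all lean values, which held for only these 2 of the 26 and for 6.15% of all tested genes. Another 4 of the 26 had all obese values above all lean values, against 25.4% of all tested genes. Stat5a and Stat5b, which carry the IL-2 signal, had log2 differences of −0.03 and 0.03. These 5 were named after their values were seen.

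The partners of the single members were tested in the same way, and none of these lists had a gene that rose or fell. Of 14 tested genes around Lrrc32 and TGF-beta, Skil and Itgav had the smallest p, with log2 differences of 0.38 and 0.37 (limma, adjusted p = 0.103 and 0.118). Tgfb1, the cytokine that GARP holds, had 193.8 ± 12.3 FPKM in obese and 199.1 ± 17.6 FPKM in lean libraries (SD, n = 3 each), and was named after its values were seen. Of 18 ligands and co-receptors of Nrp1, 6 were tested, led by the plexin Plxna1 with 0.49 (limma, adjusted p = 0.0769). Among the 7 tested partners and receptors of Ebi3, Il6st, the shared signalling receptor gp130, had 0.11 (limma, adjusted p = 0.464). The subunits that pair with Ebi3, Il12a for IL-35 and Il27 for IL-27, were under the filter, with means of 1.18 and 0.62 FPKM in obese and 0.83 and 0.32 FPKM in lean libraries. Of 9 tested folate genes, Tyms, the enzyme of thymidylate synthesis, had 0.42 (limma, adjusted p = 0.106), and the other folate receptors Folr1 and Folr2 averaged 0.0767 and 0.167 FPKM in obese and 0.02 and 0.143 FPKM in lean libraries. Of 10 tested actin regulators of the Capg list, Capza2 had 0.48 and Pfn1 −0.26 (limma, adjusted p = 0.0529 and 0.220). At an unadjusted p under 0.05 these 5 lists held 2, 1, 1, 2 and 1 genes in the order given, against 25.9% of all tested genes.

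**Figure D5:**
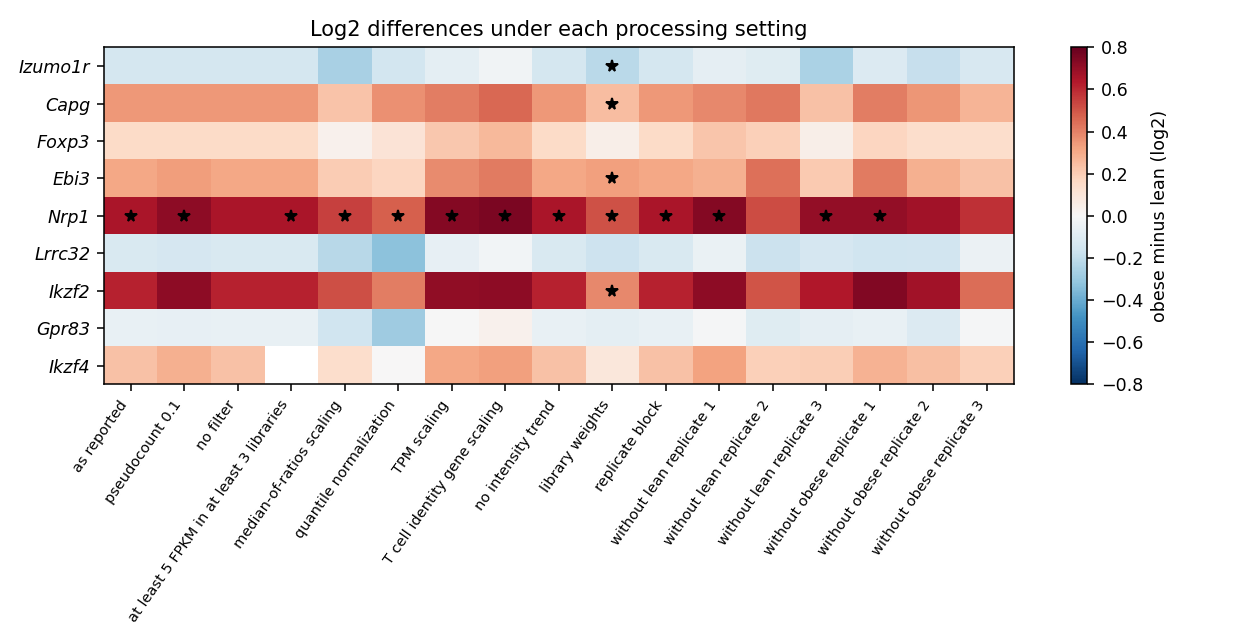
Log2 difference of the 9 genes under each processing setting, with red higher and blue lower in obese libraries and stars where the BH-adjusted p of limma was under 0.05; the white cell is Ikzf4, which was not tested at 5 FPKM. Nrp1 and Ikzf2 were the reddest throughout, Nrp1 carried a star in 12 of 16 alternatives, and with library weights 5 genes carried one.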

How the data were processed

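Total RNA of sorted splenic CD4+ T cells was sequenced on an Illumina HiSeq in 3 obese and 3 lean libraries, per the labels. Bowtie, RSEM and the GRCm38 (mm10) build are named in the submitters' processing notes, without versions. The deposited tables of the 6 libraries hold FPKM per gene, per the file headers, with no counts, so read depth and counting error are unknown and the values did not resolve into whole reads. Low genes are the least precise.

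Group differences were computed in R 4.3.3 with limma 3.58.1 (intensity trend) on log2(FPKM + 1), obese minus lean, over the 10788 of 22899 genes that reached 1 FPKM in 3 or more libraries. A fold on this scale understates the change of low genes. P-values carry Benjamini-Hochberg adjustment over all tested genes, with a threshold of 0.05. Ratios were compared by exact permutation over libraries. The limma procedure was tested on simulated data with known differences. It recovered 46% of differences of 0.5 on the log2 scale, 89% of those of 1 and 98.4% of those of 2. Of its calls, 5.27% were false. The simulation drew independent normal noise for each gene, changed few genes and shifted no library as a whole. In the data 25.9% of all tested genes had an unadjusted p under 0.05 (limma). The simulated shares may therefore not carry over to these libraries. Alternatives changed the pseudocount, filter, scaling, variance model, replicate block and libraries.

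The 9 genes and all lists were chosen with earlier results of these data known. Named genes were the 9, up to 4 called genes per list by smallest adjusted p (or, with none called, the 2 genes with the smallest p), and the 5 profiles closest to Foxp3. Gene positions and overlaps came from GENCODE M21 and promoters from RefSeq (GRCm38.p6). Protein sequences were not used here. A few of the genes so chosen are left out of the text.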

Additional observations from a re-analysis of the deposited data

How the results depend on the processing

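Over the 16 alternative settings, 134 of 143 refits of the 9 genes kept their direction and side of the threshold, as did 227 of 284 refits of the other named genes. With no filter, 368 genes passed in place of 678, with 0 of the 9 genes (Nrp1 0.65, limma BH-adjusted p = 0.0718) and 1 surface gene in place of 5. At 5 FPKM, 352 genes and 3 surface genes passed, and Ikzf4 gave no value. Quantile normalization gave 434 genes (322 higher, 112 lower, 74.2% higher) and 3 surface genes. Median-of-ratios scaling gave 441 higher and 129 lower (77.4% higher), against 622 and 56 (91.7% higher) as reported, and library weights 2507 and 609 (80.5% higher). The all-gene median was 0.10 as reported, −0.00 after median-of-ratios, 0.17 after TPM and 0.20 after T cell identity scaling. Library weights, which gave lean 1 a weight of 4.19 and lean 3 of 0.283, passed 3116 genes, 13 surface genes and 5 of the 9, adding Ikzf2 (0.39), Izumo1r (−0.22), Capg (0.24) and Ebi3 (0.33) to Nrp1 (limma, BH-adjusted p = 0.0390, 0.0380, 0.0238 and 0.0349). The cause was not tested.

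Leaving out 1 library gave 318 to 698 genes (326 without lean 1, 318 without lean 2), 0 to 1 of the 9 genes, 2 to 6 surface genes, and Nrp1 differences of 0.52 to 0.74. Directions turned for Gpr83 under T cell identity scaling (0.0374) and as a ratio to these genes in place of Foxp3 (0.0442), Il6st after median-of-ratios scaling (−0.0047) and Pfn1 after quantile normalization (0.03). Same-numbered libraries did not deviate together throughout (correlations of 0.032, 0.0607 and 0.193), and obese 1 and obese 2 did not correlate best with their own number. With the replicate block, 1015 genes (866 higher, 149 lower), 7 surface genes and Nrp1 (BH-adjusted p = 0.0276) passed. Depth is unknown, and 3 libraries a group limit every ratio test.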
